A study of Homo sapiens with 6 samples.

Results

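The MCM helicase family (MCM2 to MCM10) and CDC45 were followed in LNCaP-AI cells with and without a hairpin against METTL1. These 10 genes were taken by symbol from the 20308 genes of the expression tables, and each matched 1 row. LNCaP-AI is a prostate cancer cell line kept without androgen as a model of castration-resistant disease. The cells carried a hairpin against METTL1 (shMETTL1), which encodes an N7-methylguanosine methyltransferase of RNA, or a scrambled hairpin (shscramble), with 3 libraries of total RNA each. Androgen deprivation was common to both groups, so none of the values describes cells given androgen. 1 line and 1 hairpin against METTL1 were sequenced, and the labels do not say whether replicates were separate cultures, so p-values measure the spread between these libraries.

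MCM2 to MCM7 form the ring-shaped hexamer that is loaded onto replication origins in G1 and unwinds DNA in S phase. CDC45 and the GINS complex join the hexamer when an origin fires, and together they make up the CMG helicase. MCM10 is needed to activate that helicase, while MCM8 and MCM9 form a separate helicase that acts in homologous recombination. Transcription of many of these genes is under E2F factors and varies with the share of cycling cells. In bulk RNA, fewer cells that express a gene and less RNA of it per cell cannot be told apart.

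The promoters of MCM3, MCM6 and CDC45 are shown with their values known, to set a hexamer gene whose groups did not overlap (MCM3) beside one whose groups did (MCM6) and beside CDC45, and no relation between the letters and the values was tested. Each window runs from 250 bases before to 50 bases after the RefSeq start of the gene, on the gene's own strand in GRCh38.p14. Capitals mark the letters TTTCCCGC, TTTGGCGC, TTTCGCGC or TTTGCCGC, searched on both strands, where matches on opposite strands can overlap.
MCM3, chr6:52284693-52284992, minus strand: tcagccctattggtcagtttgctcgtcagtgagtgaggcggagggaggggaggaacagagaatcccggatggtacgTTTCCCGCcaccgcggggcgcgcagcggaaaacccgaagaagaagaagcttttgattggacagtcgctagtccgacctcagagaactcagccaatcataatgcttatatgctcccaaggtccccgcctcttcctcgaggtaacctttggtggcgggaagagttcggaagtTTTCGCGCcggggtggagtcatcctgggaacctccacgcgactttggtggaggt
MCM6, chr2:135876394-135876693, minus strand: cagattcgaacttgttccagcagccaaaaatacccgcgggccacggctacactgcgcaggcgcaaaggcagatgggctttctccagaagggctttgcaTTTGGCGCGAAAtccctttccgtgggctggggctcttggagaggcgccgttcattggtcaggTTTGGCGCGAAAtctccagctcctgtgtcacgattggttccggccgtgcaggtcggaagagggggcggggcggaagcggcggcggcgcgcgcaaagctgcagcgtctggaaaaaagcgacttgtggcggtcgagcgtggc
CDC45, chr22:19479670-19479969, plus strand: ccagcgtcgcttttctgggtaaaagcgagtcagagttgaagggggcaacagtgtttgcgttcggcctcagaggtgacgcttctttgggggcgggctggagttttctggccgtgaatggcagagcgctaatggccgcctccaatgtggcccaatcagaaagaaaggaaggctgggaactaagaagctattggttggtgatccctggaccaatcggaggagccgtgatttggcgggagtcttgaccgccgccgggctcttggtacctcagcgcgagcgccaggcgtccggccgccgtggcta
The MCM3 window held 2 matches and the MCM6 window held 4, in 2 overlapping pairs. None of these letters was in the CDC45 window or in the other windows of that gene. Only the listed letters of E2F sites were searched. Stretches that differ from them, such as tttggcggga in the CDC45 window, were not counted. Of 8 genes whose windows were searched, 5 held the letters in at least 1 window (MCM2, MCM3, MCM6, MCM7 and MCM8). A gene can have more than 1 window, and of 35116 single promoter windows of all genes 3.31% held the letters. Counted by gene, 667 of the 9709 tested genes with a window held them. MCM9 and MCM10 held none. No window of MCM4 or MCM5 was searched, so the count above leaves both genes out and says nothing of their promoters. The letters CCAAT, bound by NF-Y, stood at 4 places in the CDC45 window and 3 in the MCM3 window, and 34.61% of all windows held them. Over the 667 tested genes whose promoter held the E2F letters, the median log2 fold change by FPKM was -0.02, beside 0.02 over the 9709 tested genes with a promoter window.

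The labelled identity of the cells was checked first. Of 10 luminal prostate markers KLK3 was the highest, between 743 and 1224 FPKM (fragments per kilobase of transcript, scaled to library size). SLC45A3 was the lowest, between 3.13 and 5.05 FPKM. KRT5, DCN, LUM, PTPRC, CD3E, LST1 and CDH5 were listed at 0 in every library. The stromal marker COL1A1 lay between 4.95 and 13.5 FPKM and the basal marker KRT14 between 0 and 3.70. The summed FPKM of 9 basal and stromal markers was 10.8 to 17.0 in shscramble and 10.8 to 16.3 in shMETTL1. Within that sum ACTA2, a smooth muscle actin, was higher in every shMETTL1 library, at 1.70, 2.30 and 1.10 against 5.08, 4.51 and 5.07 FPKM (adjusted p 0.125 by limma and 0.127 by edgeR). The sum of 7 immune and endothelial markers was 11.9 to 17.0 FPKM in shscramble and 6.60 to 8.24 in shMETTL1, nearly all of it from CD68. The summed FPKM of 10 luminal markers was 2476 to 2537 in shscramble and 1958 to 2221 in shMETTL1, and 5 of the 10 had a negative log2 fold change by limma, with a median of -0.02. KLK3, KLK2 and TMPRSS2 were lower in every shMETTL1 library and fell by edgeR (adjusted p 0.00319, 1.93e-05 and 0.0305). By limma only KLK2 of these genes passed (adjusted p 0.0976, 0.0356 and 0.392 in the same order). KRT18 was higher in every shMETTL1 library, at 94.3, 105 and 107 against 132, 133 and 134 FPKM (adjusted p 0.237 by limma and 0.0611 by edgeR). The part of these levels in the results was not tested. METTL1 itself had 13.9, 18.5 and 21.0 FPKM in shscramble replicates 1, 2 and 3 and 8.35, 10.5 and 8.18 in shMETTL1 replicates 1, 2 and 3. The log2 fold change was -0.93 by limma, and the adjusted p of 0.127 did not pass, whereas edgeR on the estimated counts gave -1.36 with an adjusted p of 0.0368. The exact two-sided permutation test on FPKM gave p = 0.1, the smallest that this number of libraries allows. METTL1 shares 506 exon bases with EEF1AKMT3 on the opposite strand. The edgeR call was lost without shscramble replicate 3, shMETTL1 replicate 1 or shMETTL1 replicate 3, at adjusted p of 0.187, 0.142 and 0.109. Each library summed to between 3389897 and 3604835 estimated counts. The number of reads behind them is unknown, so no counting interval is given. The library of shscramble replicate 2 stood apart from the others of its group, in that leaving it out raised the number of genes called by limma from 15 to 189, while leaving out any other library gave 3 to 6.

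None of the 10 genes passed an adjusted p of 0.05 in the fit by limma on log2(FPKM + 0.5), in which 15 of 12156 genes (0.123%) passed. All 10 genes were above the filter of a mean of 0.5 FPKM. None passed by edgeR on the estimated counts either, where 712 of 11248 genes (6.33%) did, nor by DESeq2. MCM3 alone passed by limma on log2 CPM of the counts, with an adjusted p of 0.0491. At an unadjusted p under 0.05, MCM3 and CDC45 were lower in shMETTL1 by limma, beside 6.8% of all genes tested. By edgeR these were MCM3, MCM8, MCM10 and CDC45, beside 12.1%. MCM3 and CDC45 also met by FPKM the thresholds that the study states (fold change above 1.5, unadjusted p under 0.05), as did 4.38% of all genes in that direction. By edgeR none of the 10 met them, beside 5.22% of all genes. The log2 fold change was negative for 8 genes in both fits, with a median over the 10 genes of -0.38 by limma and -0.26 by edgeR, beside 0.02 and -6.74e-05 over all genes tested.

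**Figure D1:**
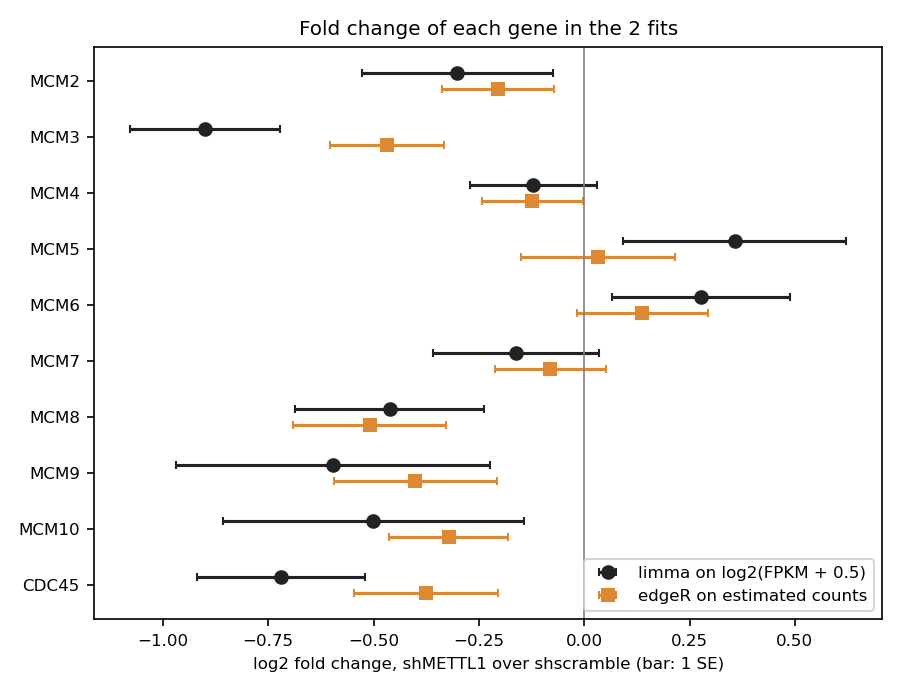
Log2 fold change of each gene in shMETTL1 over shscramble (horizontal axis), with 1 standard error, from the limma fit of log2(FPKM + 0.5) (circles) and the edgeR fit of counts (squares). MCM3 lies at -0.90 by FPKM and -0.47 by counts, CDC45 at -0.72 and -0.38, and only MCM5 and MCM6 lie above 0 in both fits.

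MCM3 was the hexamer subunit with the lowest ratio between the groups. The gene (ENSG00000112118) lies on chromosome 6, 52264009 to 52284881, minus strand, in GENCODE v29 on GRCh38. It had 52.5, 41.1 and 52.8 FPKM in shscramble replicates 1, 2 and 3, and 23.2, 24.1 and 30.6 FPKM in shMETTL1 replicates 1, 2 and 3. Every shMETTL1 library lay below every shscramble library, as was the case for 9.33% of all genes tested. Mean levels were 48.8 ± 6.68 FPKM in shscramble and 26.0 ± 4.06 FPKM in shMETTL1 (SD, n = 3 each), so that MCM3 stood at 53.2% of its shscramble level. By limma its log2 fold change of -0.90 had a standard error of 0.18, and the adjusted p was 0.0883.

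The estimated counts of MCM3 gave the same direction with a smaller difference. They were 331, 339 and 377 in shscramble and 234, 251 and 299 in shMETTL1, again without overlap, as for 11.1% of all genes tested. The mean in shMETTL1 was 74.9% of that in shscramble. By edgeR the difference came to -0.47 on the log2 scale (standard error 0.13), with an adjusted p of 0.0503. Without shscramble replicate 2, which had the lowest FPKM of MCM3 in its group, the adjusted p was 0.0425 by limma, in a fit that called 189 genes, and 0.0107 by edgeR, in a fit that called 1989 of 11371 genes. Without shMETTL1 replicate 3, the highest of its group, it was 0.162 by limma and 0.0434 by edgeR, and with any other library left out it lay between 0.102 and 0.296 over both tools.

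The other 5 subunits of the hexamer had overlapping groups by FPKM and by counts. MCM2 had 26.9, 49.6 and 31.3 FPKM in shscramble and 26.3, 27.2 and 31.0 FPKM in shMETTL1. Only shscramble replicate 2 stood apart, and without it the log2 fold change of MCM2 went from -0.30 to -0.05. MCM5 had 13.5, 29.6 and 19.1 FPKM in shscramble and 22.5, 26.5 and 27.3 FPKM in shMETTL1, a log2 fold change of 0.36 with an adjusted p of 0.567 by limma. MCM6 had 12.0, 18.1 and 12.3 FPKM in shscramble and 15.2, 17.9 and 17.8 FPKM in shMETTL1, a log2 fold change of 0.28 with an adjusted p of 0.577. For both genes shscramble replicate 2 was again the highest library. Leaving it out took the log2 fold change to 0.64 for MCM5 and 0.46 for MCM6, and neither passed, with adjusted p of 0.137 and 0.214 by limma. Without shscramble replicate 1, the lowest library for both, it was 0.09 for MCM5 and 0.18 for MCM6.

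MCM4 and MCM7 had the highest levels and the smallest differences by FPKM. MCM4 had 157, 123 and 149 FPKM in shscramble and 131, 116 and 147 FPKM in shMETTL1. MCM7 had 77.3, 73.5 and 105 FPKM in shscramble and 60.2, 77.7 and 90.6 FPKM in shMETTL1. The ranges of both groups overlapped for each gene, with the lowest and the highest value lower in shMETTL1. The log2 fold changes were -0.12 and -0.16, with standard errors of 0.15 and 0.20. On the annotation MCM7 shares 392 exon bases with AP4M1 on the opposite strand and MCM2 shares 45 with TPRA1 and 1113 with the antisense gene AC023593.1, and since strand is not stated for the counting, reads from such stretches cannot be assigned to either gene.

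**Figure D2:**
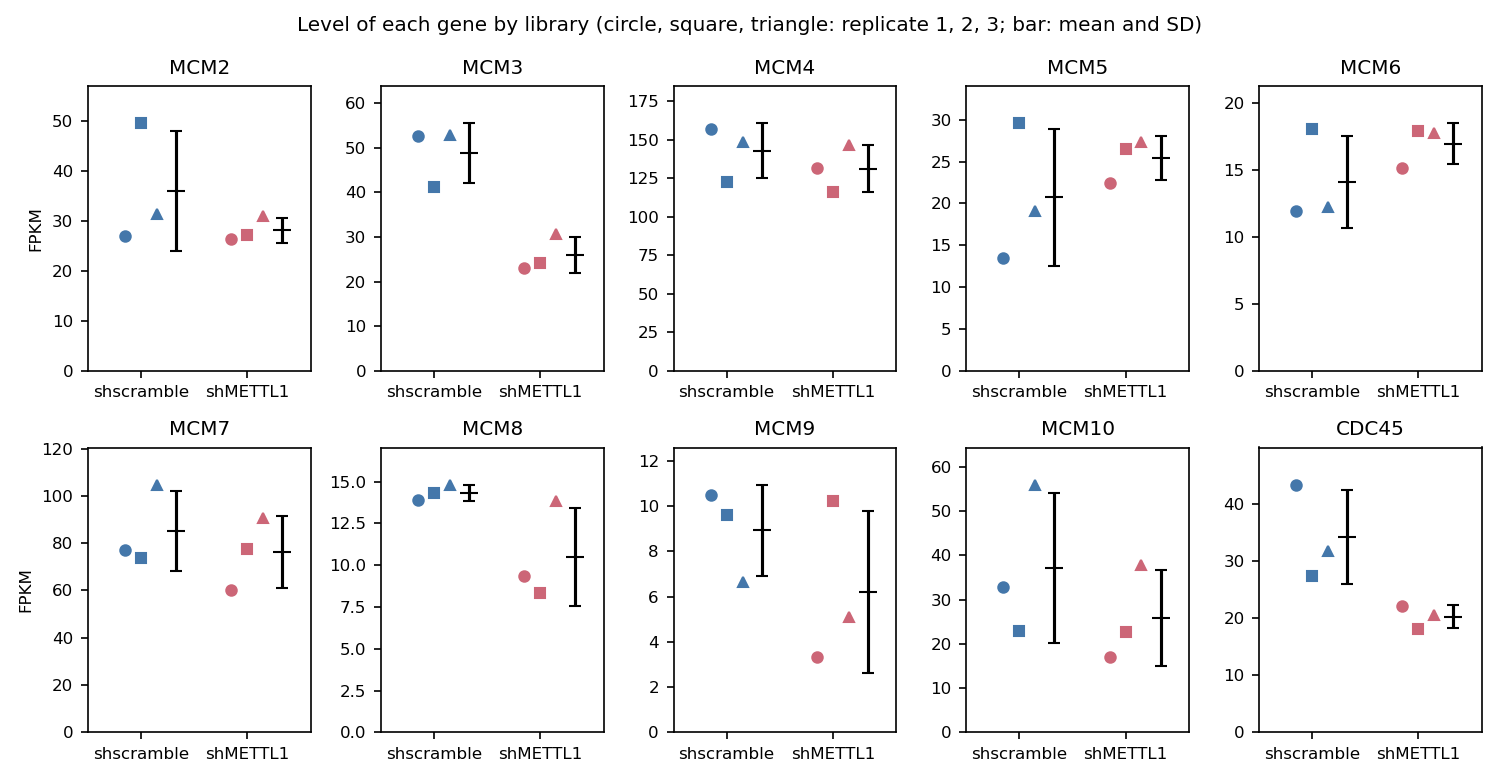
FPKM of each gene (vertical axis of each panel, from 0) in the 3 shscramble libraries (blue) and the 3 shMETTL1 libraries (red), with the replicate number given by the symbol and the mean and SD beside the points. The groups are apart for 3 of the 10 genes, MCM3, CDC45 and, by 13.83 against 13.87 FPKM, MCM8, beside 9.33% of all genes tested. The library of shscramble replicate 2 (square) is highest for MCM2, MCM5 and MCM6.

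MCM8 and MCM9, the helicase pair of recombination, both had lower means in shMETTL1. MCM8 had 13.9, 14.3 and 14.8 FPKM in shscramble and 9.37, 8.32 and 13.8 FPKM in shMETTL1. 2 of the 3 shMETTL1 libraries lay well below shscramble, and the third lay just under its lowest value. The groups were thus apart by FPKM, as for 9.33% of all genes tested. By limma the log2 fold change was -0.46 with an adjusted p of 0.389, and by edgeR -0.51 with 0.106. In the counts the same library, at 205.3 in shMETTL1 against 204.7 in shscramble, overlapped, and without this library (replicate 3) edgeR gave -0.78 with an adjusted p of 0.0238. Without shscramble replicate 2 the edgeR adjusted p was 0.0498, and with any other library left out it lay between 0.191 and 0.378.

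MCM9 had 10.5, 9.63 and 6.65 FPKM in shscramble and 3.35, 10.2 and 5.08 FPKM in shMETTL1, which overlapped. The estimated counts of MCM9 did not overlap, at 102, 87.7 and 85.6 against 72.1, 68.7 and 76.3, as for 11.1% of all genes tested. By edgeR MCM9 had a log2 fold change of -0.40 with an adjusted p of 0.229. MCM9 shares 137 exon bases with ASF1A and 100 with the antisense gene AL137009.1 on the opposite strand, so the same limit on strand holds here.

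CDC45, which holds the hexamer in its active form together with GINS, was lower in every shMETTL1 library. The gene (ENSG00000093009) lies on chromosome 22, 19479459 to 19520612, plus strand, in GENCODE v29 on GRCh38. It had 43.5, 27.5 and 31.9 FPKM in shscramble and 22.2, 18.2 and 20.5 FPKM in shMETTL1. The groups did not overlap, as for 9.33% of all genes tested, and the shscramble libraries were the more scattered. Mean levels were 34.3 ± 8.24 FPKM in shscramble and 20.3 ± 1.99 FPKM in shMETTL1 (SD, n = 3 each), and CDC45 stood at 59.2% of its shscramble level. By limma its log2 fold change of -0.72 had a standard error of 0.20, and the adjusted p was 0.177.

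The estimated counts of CDC45 were 143, 139 and 112 in shscramble and 107, 100 and 108 in shMETTL1. They were also apart, as for 11.1% of all genes tested, though the nearest libraries had 112 and 108 counts. By edgeR the log2 fold change was -0.38 with an adjusted p of 0.205. Without shscramble replicate 1, the highest library, it was -0.54 by limma, and CDC45 no longer met the fold change of 1.5. CDC45 passed in none of the fits run.

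MCM10 had 32.8, 23.0 and 56.0 FPKM in shscramble and 16.9, 22.7 and 37.9 FPKM in shMETTL1. By FPKM the spread within each group was as wide as the difference, and the groups overlapped. The estimated counts of MCM10 were 258, 326 and 347 in shscramble and 243, 232 and 294 in shMETTL1, which also overlapped. By limma MCM10 had a log2 fold change of -0.50 (standard error 0.36, adjusted p 0.548) and by edgeR of -0.32 (standard error 0.14, adjusted p 0.189). The limma value was -0.16 without shscramble replicate 3, -0.24 without shMETTL1 replicate 1, -0.80 without shscramble replicate 2 and -0.81 without shMETTL1 replicate 3, and MCM10 passed in none of these fits.

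The share of MCM3 in the hexamer set its values against those of its partners in the same library. MCM3 made up 15.5%, 12.3% and 14.3% of the summed FPKM of MCM2 to MCM7 in shscramble and 8.31%, 8.33% and 8.90% in shMETTL1. By estimated counts the shares were 16.4%, 12.1% and 15.3% against 11.0%, 11.3% and 11.9%. In both units the groups were apart, by counts only narrowly. The summed estimated count of the 6 genes was 2429 ± 391 in shscramble and 2285 ± 198 in shMETTL1 (SD, n = 3 each), and the ranges overlapped.

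Levels of the 6 subunits differed widely by FPKM. Their means over all 6 libraries were 137 ± 16.2 FPKM for MCM4, 80.7 ± 15.3 for MCM7, 37.4 ± 13.5 for MCM3, 32.1 ± 8.86 for MCM2, 23.1 ± 6.02 for MCM5 and 15.6 ± 2.86 for MCM6 (SD, n = 6). MCM4 ranked first, MCM7 second and MCM6 last in every library. Neighbours from MCM3 down to MCM6 had overlapping ranges of mean ± SD, although MCM2 was above MCM5 and MCM5 above MCM6 in every library, while MCM3 and MCM2 changed places. By group, MCM3 averaged 48.8 FPKM against 36.0 for MCM2 in shscramble and 26.0 against 28.2 in shMETTL1, and in shMETTL1 replicate 2 MCM3 was also below MCM5, at 24.1 against 26.5 FPKM. The highest was 6.47 to 13.1 times the lowest within a library. By estimated count per kilobase of the longest principal GENCODE transcript, a scale chosen after the data were seen, the range within a library was 2.41 to 3.64 times, and MCM7 at 165 ± 22.0 and MCM4 at 160 ± 17.0 counts per kilobase were not separated.

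**Figure D3:**
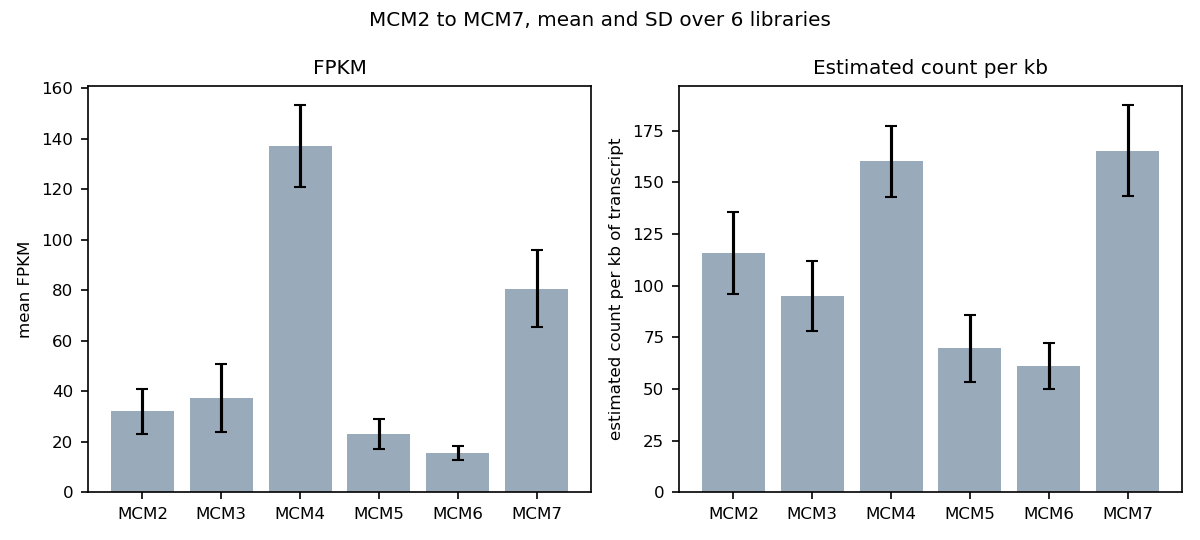
Mean and SD over 6 libraries of FPKM (left) and of estimated count per kilobase of the longest principal transcript (right) for MCM2 to MCM7, both axes from 0. MCM4 has 137 FPKM against 15.6 for MCM6 on the left, and 160 against 61.0 counts per kilobase on the right.

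FPKM and estimated counts of 1 gene differ by the transcript length that the processing assigned. An implied length was therefore computed as the estimated count divided by FPKM and by the summed estimated counts of the library, scaled to give kilobases (kb). For 624 genes with 1 annotated transcript its median was 1.12 times the annotated length. For MCM4 the implied length averaged 1.40 kb, beside a principal transcript of 4.18 kb, and for MCM7 it was 1.75 kb beside 2.96 kb. MCM6, with 1 coding transcript of 3.74 kb, had 4.17 kb.

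The implied length of MCM3 was 1.86, 2.32 and 2.06 kb in shscramble and 2.80, 2.89 and 2.78 kb in shMETTL1, beside a principal transcript of 3.21 kb. It was longer in every shMETTL1 library, by 0.45 on the log2 scale with a standard error of 0.09. MCM5 had 3.58, 3.14 and 3.43 kb in shscramble and 2.69, 2.67 and 2.95 kb in shMETTL1, shorter in every shMETTL1 library by a log2 difference of -0.29. MCM3 and MCM5 were the only members whose groups were apart in this measure, as were 10.8% of 11802 genes. Neither passed in the limma fit over those genes, with adjusted p of 0.72 and 0.783, and no gene did, while 674 genes had an unadjusted p under 0.05. CDC45 had 0.97, 1.42 and 1.01 kb in shscramble and 1.34, 1.53 and 1.49 kb in shMETTL1, which overlapped. Which transcripts the reads of MCM3 came from was not tested, since the tables hold 1 value per gene.

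**Figure D4:**
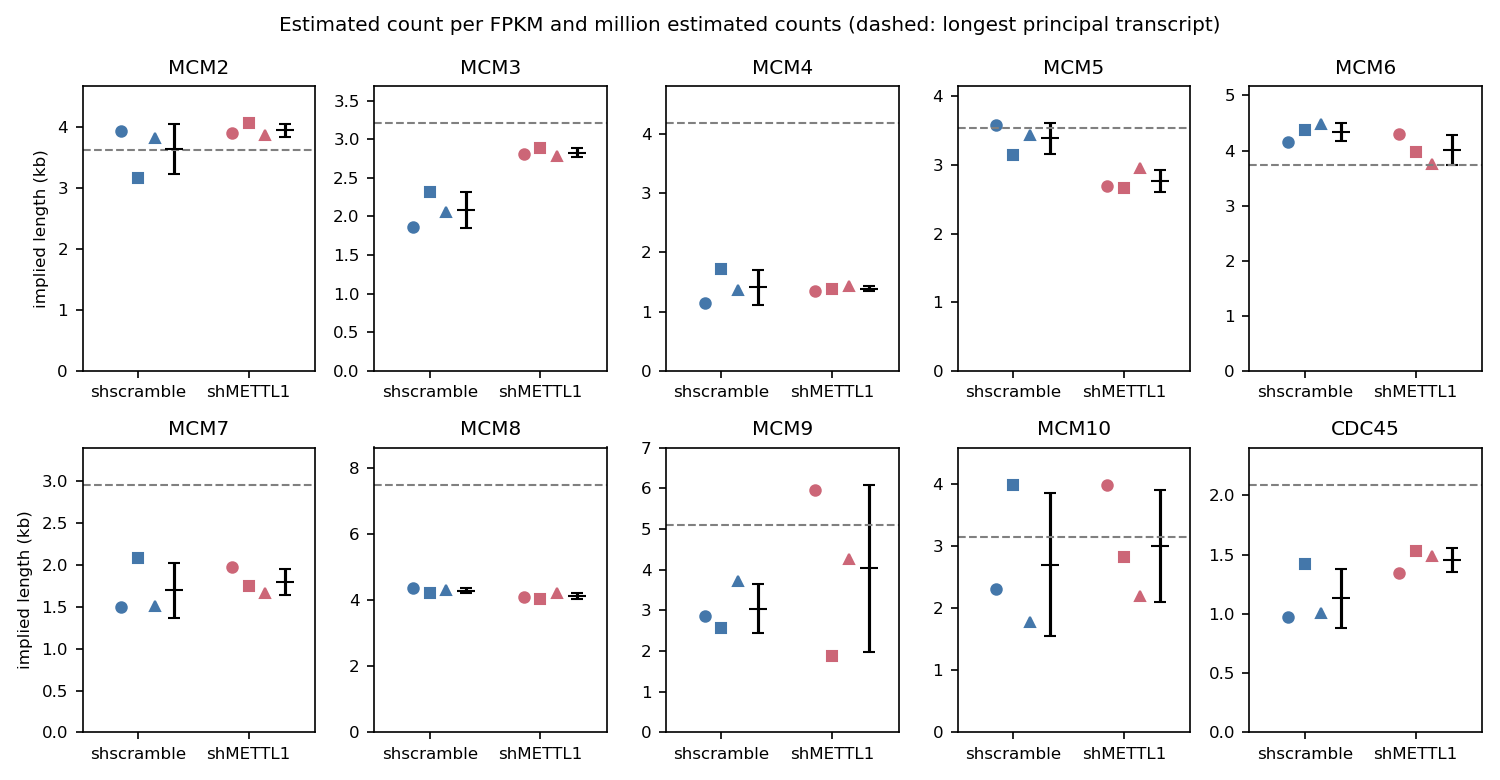
Implied transcript length in kb (vertical axis of each panel, from 0), that is the estimated count divided by FPKM and by the library's summed estimated counts, for the shscramble (blue) and shMETTL1 (red) libraries with mean and SD, and the longest principal GENCODE transcript as a dashed line. The groups are apart for MCM3, longer in shMETTL1, and MCM5, shorter in shMETTL1.

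Genes that load, activate, regulate or follow the helicase were read from 5 lists of 82 genes in all. Of these, 24 are the E2F and RB family list, which holds cell cycle regulators such as CDKN1A. By limma none of them passed, and at an unadjusted p under 0.05 the shMETTL1 level was lower for 10 and higher for 3, beside 6.8% and 7.37% of all genes tested. By edgeR 4 fell and 1 rose, beside 3.65% and 2.68% of all genes tested, while DESeq2 called 6 and limma on log2 CPM called 5, beside 4.78% and 6.45%. The edgeR count of 5 at an adjusted p under 0.05 is near the 6.33% of all genes. At an unadjusted p under 0.05 by edgeR, 20 were lower, beside 12.1% of all genes tested, and 5 were higher. The median log2 fold change over the 82 genes was -0.16 by limma and -0.20 by edgeR, beside the same values over all genes tested as above.

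Of all genes tested, 47.5% had a negative log2 fold change by limma and 50.01% by edgeR. Of the 14 genes of CMG assembly and firing, 12 had a negative log2 fold change in each fit, with a median of -0.34. CDC7, the kinase that phosphorylates the MCM hexamer to fire origins, had 353, 272 and 325 estimated counts in shscramble and 200, 176 and 216 in shMETTL1. CDC7 fell by 0.74 on the log2 scale by edgeR, with an adjusted p of 0.00961. In the counts every shMETTL1 library lay below every shscramble library, as for 11.1% of all genes tested. POLE2, a subunit of the leading strand polymerase, had a log2 fold change of -0.61 with an adjusted p of 0.185 by edgeR. The 4 GINS genes had log2 fold changes between -0.43 and -0.32 by edgeR, and none passed.

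Of the 15 partners of MCM and CDC45, 12 had a negative log2 fold change in each fit. WDHD1, an adaptor that links the CMG helicase to DNA polymerase alpha, had 310, 299 and 402 counts in shscramble and 193, 209 and 271 in shMETTL1, and fell by 0.64 by edgeR with an adjusted p of 0.0283. TIMELESS, a subunit of the fork protection complex, had a log2 fold change of -0.33 with an adjusted p of 0.131, and MCMDC2, an MCM domain protein of meiosis, had -0.32 with 0.525.

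Among 19 genes of the replication fork, 18 had a negative log2 fold change by edgeR and 2 passed. LIG1, the ligase that joins Okazaki fragments, had 64.1, 111 and 67.0 counts in shscramble and 45.9, 44.2 and 38.1 in shMETTL1 and fell by 0.96, with an adjusted p of 0.0283 by edgeR. RFC1, the large subunit of the clamp loader, had 599, 640 and 677 counts in shscramble and 473, 431 and 529 in shMETTL1 and fell by 0.47, with an adjusted p of 0.0257. In the counts the groups were apart for both genes, as for 11.1% of all genes tested, but the FPKM of RFC1 overlapped, and so did that of WDHD1. By limma on FPKM the adjusted p of CDC7, WDHD1, LIG1 and RFC1 lay between 0.193 and 0.459. With 1 library left out, the edgeR call held in 4 of 6 fits for CDC7, lost without shscramble replicate 3 (0.052) or shMETTL1 replicate 2 (0.0654). WDHD1 and RFC1 lost it without shscramble replicate 3, shMETTL1 replicate 1 or shMETTL1 replicate 2, at adjusted p between 0.113 and 0.173. LIG1 kept it only without shscramble replicate 1 or 3, and reached 0.114 without shMETTL1 replicate 3. PCNA, the sliding clamp, had a log2 fold change of -0.44, RFC3 -0.52 and the primase subunit PRIM2 -0.86, with adjusted p of 0.062, 0.0623 and 0.0836 by edgeR.

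Over the 10 genes of origin licensing the median log2 fold change was 0.07 by limma and 0.04 by edgeR, and none passed in either fit. ORC2, a subunit of the origin recognition complex, was the gene of this list with an unadjusted p under 0.05 by limma, 0.80 higher on the log2 scale with an adjusted p of 0.351. The E2F and RB family list had a median of 0.01 by limma and -0.05 by edgeR over 24 genes. CDKN1A, which encodes the cyclin-dependent kinase inhibitor p21, had 204, 353 and 215 counts in shscramble and 662, 744 and 647 in shMETTL1. CDKN1A rose by 1.37 on the log2 scale by edgeR, with an adjusted p of 9.6e-05, and by limma its log2 fold change was 1.51 with an adjusted p of 0.0536. The edgeR call held with each of the 6 libraries left out, at adjusted p of at most 0.00183. E2F4 had a log2 fold change of 0.74 and TFDP2, a dimer partner of E2F, of -0.55 by limma, with adjusted p of 0.327 and 0.179.

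**Figure D5:**
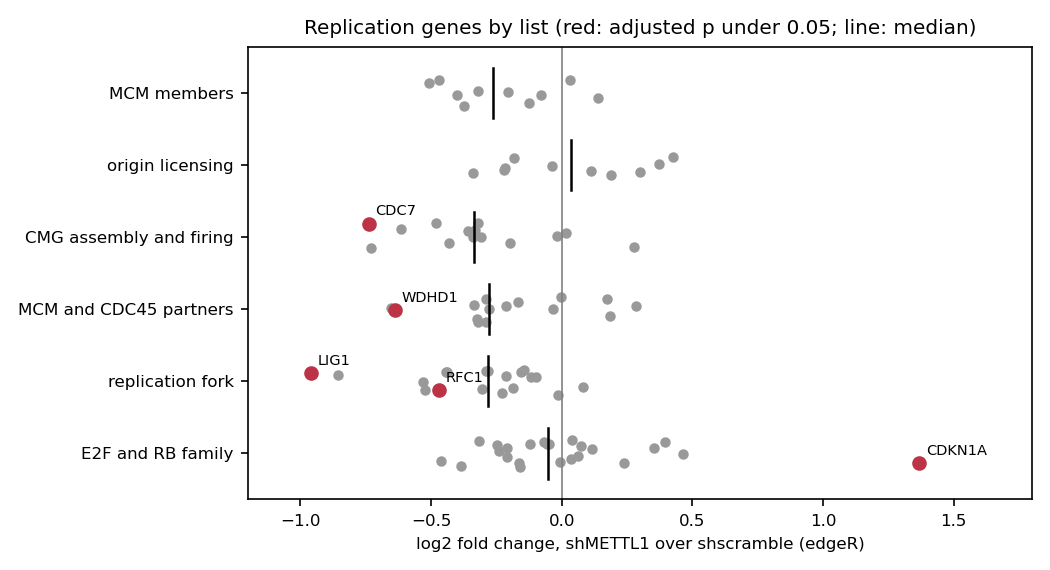
Log2 fold change in shMETTL1 over shscramble by edgeR (horizontal axis). Rows hold the MCM genes with CDC45 and 5 lists of replication and cell cycle genes. A line marks the median of each list, and genes with an adjusted p under 0.05 are in red. CDC7, WDHD1, LIG1 and RFC1 lie below 0 and CDKN1A lies at 1.37, and no MCM gene is red.

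The genes most like the hexamer in pattern were sought over the 9329 other genes with a mean of at least 5 FPKM. By Pearson's r over the 6 libraries with the mean log2(FPKM + 0.5) of MCM2 to MCM7, these were GSTT2 at 0.996, RAB23 at 0.996 and ZSWIM8 at 0.991. All of these values share the same 6 libraries, and they are given as a description. GSTT2 has a near-identical copy, between which the counting could split reads.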

How the data were processed

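RNA-seq was carried out on 6 libraries of LNCaP-AI cells, 3 shscramble and 3 shMETTL1. In the processing notes of the submitters, build hg19 is named together with HISAT2 2.0.4, Cuffdiff, Cufflinks and cutadapt 1.9.3, without their roles. For each library the authors deposited 1 FPKM value per gene, relative to transcript length and library size, and 1 estimated count per gene, which is mostly fractional. The number of reads behind a library is not given. The members and the gene lists were chosen with earlier results of these data known.

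Genes with a mean of at least 0.5 FPKM were tested with limma 3.58.1 in R 4.3.3 (intensity trend, robust prior) on log2(FPKM + 0.5), a scale that understates the change of low genes. Estimated counts were rounded and tested with edgeR 4.0.16 (quasi-likelihood, TMM, filterByExpr); DESeq2 1.42.0 and a limma fit of log2 CPM (prior count 2) were run on the same counts. P-values are two-sided and adjusted over all genes tested by the Benjamini-Hochberg method. Standard errors for edgeR are the log2 fold change divided by the root of F. The scripts were tested on simulated data. Always named were the members and METTL1. From the lists, each gene with an unadjusted limma p under 0.05 or an adjusted edgeR p under 0.05 was named. The GINS genes, SLC45A3, COL1A1 and KRT14 were added after their values were seen. Alternatives were other pseudocounts, filters and scalings, a replicate block and leaving out each library. Implied lengths, counts per kilobase and the promoter medians were added after seeing the data.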

Additional observations from a re-analysis of the deposited data

How the results depend on the processing

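By limma on FPKM, no other pseudocount, filter or scaling called a member. The count of members called was 2 by edgeR without a filter (MCM3 and MCM8), beside 7.34% of all genes tested, and 1 by limma on log2 CPM, beside 6.45%. With 1 library left out it was 0 to 2. It was 2 by edgeR without shscramble replicate 2, which called 17.5% of all genes, and without shMETTL1 replicate 3, which called 2.87%. The count past the thresholds of the study was 2 by FPKM, where 4.38% of all genes tested passed as lower in shMETTL1. It was 0 by edgeR with TMM, where 5.22% did. It was also 0 by edgeR with RLE size factors or without a filter, by DESeq2 and by limma on log2 CPM. With 1 library left out it was 0 to 3.

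Replication partners here are the 82 genes of the 5 lists, the E2F and RB family included. Those called numbered 0 in the limma fit. They numbered 1 with a filter at 2 FPKM, with median-ratio scaling or with quantile normalization (CDKN1A each time). They numbered 5 by edgeR with TMM or RLE, 8 without a filter, 6 by DESeq2 and 5 by limma on log2 CPM. With 1 library left out they numbered 0 to 17, the highest by edgeR without shscramble replicate 2. The share of all genes called in the same fits was 6.33% by edgeR with TMM, 6.30% with RLE, 7.34% without a filter, 4.78% by DESeq2, 6.45% by limma on log2 CPM and 17.5% without shscramble replicate 2.

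METTL1 had a log2 fold change of -0.93 by limma and passed at -1.36 by edgeR with TMM, -1.37 with RLE, -1.36 without a filter, -1.37 by DESeq2 and -1.35 by limma on log2 CPM; with 1 library left out it lay between -1.72 and -0.80, and it passed by edgeR without shscramble replicate 1 (-1.52), shscramble replicate 2 (-1.42) or shMETTL1 replicate 2 (-1.72).

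Libraries of the same replicate number did not deviate together from their group means (r of -0.02 to 0.05). The labels do not say whether they were paired, and with 3 libraries a group these r cannot settle it. With the replicate block edgeR called 2 members (MCM3, adjusted p 0.0239, and MCM8, 0.0378), none past the thresholds of the study (0), 8 partners and METTL1 at -1.40. That fit called 9.02% of all genes tested, beside 6.33% by edgeR without the block. With the block limma called 0 members and 1 partner, beside 0.049% of all genes tested.

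The share of MCM3 in the summed FPKM of MCM2 to MCM7 was lower in shMETTL1 by a difference of -5.51 percentage points, by counts -3.18, and -6.38 to -4.79 with 1 library left out. By edgeR, MCM5 turned from 0.03 to -0.15 without shscramble replicate 1 and to -0.076 without shMETTL1 replicate 3, and MCM7 turned from -0.08 to 0.0077 without shscramble replicate 3; none of these passed, and the cause was not tested. The other 8 members kept their direction in each of 25 alternatives. With 3 libraries a group and an unknown read depth, the precision of each value rests on the spread between libraries alone.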
